A study of Mus musculus with 6 samples.

Results

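In all, 10 genes of the synaptic vesicle and its release machinery were examined on arrays that set neural stem cells labelled null for the DNA methyltransferase Dnmt3a (KO) against wild-type (WT) ones. The genes are Syt1, Syt4 and Syt11, Snap25, Stx1a and Vamp2, Syn1 and Syn2, and Syp and Sv2a. They were taken by name, or by the RefSeq accession of a probe, from all non-control spots, and are 10 of the 28786 gene names on the array, with 29 probes. For 9 of the 10 the brightest probe exceeded background clearly, in the scanner software's own call, in either channel of 2 or more of the 6 arrays, and these 9 were tested. Syt4 did not pass.

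The cells were taken from walls of the lateral ventricles of 14 to 21 day old pups, were labelled Dnmt3a-null or wild type, and were grown as monolayers with FGF-2 and EGF at 10 ng/ml each. Differentiating KO and WT cells had been replated for 2 days with mitogens and then kept for 3 days without them, while proliferating KO and WT cells stayed in mitogens. Each array held KO RNA in one dye and WT RNA in the other, on 2 arrays of differentiating and 4 of proliferating cells, with the dyes swapped within each condition. The labels call the arrays biological replicates; they do not say how many animals a culture came from or how the Dnmt3a-null cells were made.

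A transmitter-filled vesicle fuses with the plasma membrane when a SNARE on the vesicle zips together with SNAREs on the target membrane, and synaptotagmins on the vesicle make that step depend on calcium. Synapsins tether vesicles to each other and to actin, and membrane proteins such as synaptophysin and SV2 complete the vesicle. Young neurons switch these genes on as they mature. Neural stem cells of the subventricular zone give rise to neurons, astrocytes and oligodendrocytes once mitogens are removed.

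After mitogen withdrawal, Syt1, the calcium sensor of fast transmitter release, and Snap25, a SNARE of the plasma membrane, had lower signals in KO than in WT cells. None of the 9 was called in proliferating cells. In differentiating cells 2 of the 9 tested members were called lower and 0 higher in KO cells, against 0.902% of all 18062 tested genes called lower and 2.18% called higher (3.08% either way). The members' median log2 ratio was -0.19 there, beside -0.01 over all tested genes. In proliferating cells 0 of 9 were called, against 0.952% of all genes, and 1 of the 9 had an unadjusted p under 0.05, as had 2885 of the 18062 tested genes. In differentiating cells 4 of the 9 had one, as had 3164 of the 18062. The members were chosen with earlier results of these data known, so these counts are descriptions and not independent support. A gene was called at a Benjamini-Hochberg adjusted p under 0.05 from limma, fitted over all tested genes. Values below are log2, either the ratio KO over WT on an array or the signal of one channel, and a ratio is given as mean ± SD over arrays. Where KO and WT signals are said not to overlap, the share of all genes that separate in the same way was not counted.

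**Figure D1:**
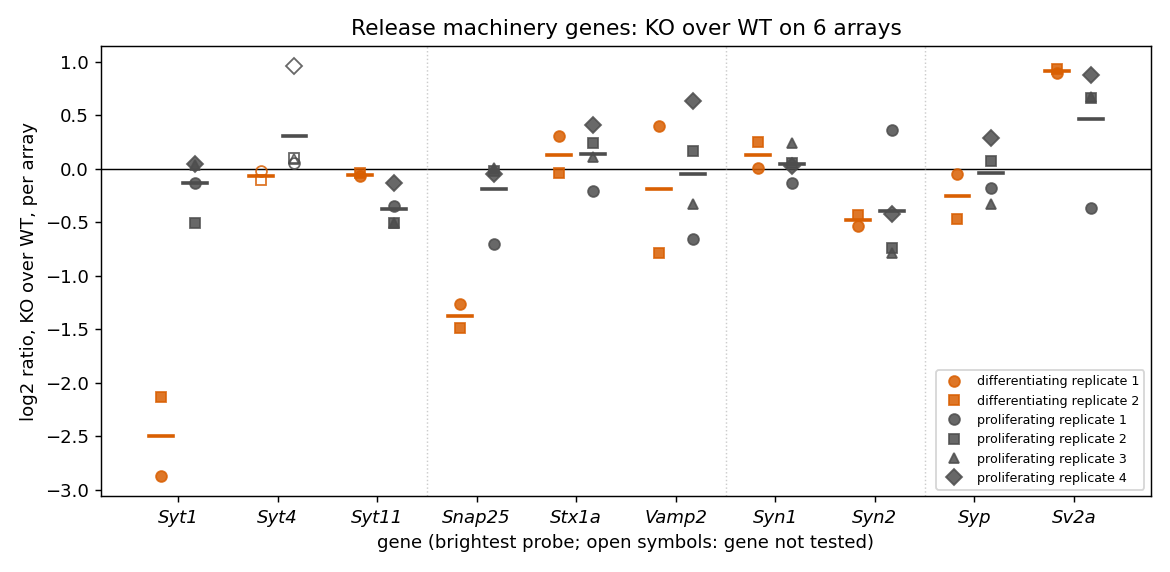
Log2 ratio KO over WT (y axis) of the 10 genes at their brightest probe, with 1 symbol per array, differentiating arrays (orange) left of proliferating ones (grey), and bars at the means. Syt1 and Snap25 lie between -2.87 and -1.26 on the differentiating arrays, below each of their proliferating values.

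Whole-array values set the scale for these results. Per channel, between 52.3% and 59.1% of gene spots exceeded background by that call. Dnmt3a itself was lower in KO cells on all 6 arrays at each of its 3 probes, and at the brightest one by -1.38 ± 0.14 in differentiating cells (limma adjusted p = 0.0154, n = 2) and -0.96 ± 0.22 in proliferating cells (limma adjusted p = 0.0219, n = 4). Whether the probes lie in the deleted part is not known here. Nes and Sox2, markers of neural stem cells, were well above background in all 12 channels. Proliferating and differentiating arrays were on 2 different slides, scanned apart, so slide and condition cannot be told apart in any comparison between conditions. Proliferating replicates 3 and 4 differed between KO and WT RNA in sex-linked genes. Xist signals there were 12.7 and 13.3 in WT and 11.3 and 11.1 in KO cells, and at most 6.08 in all remaining channels. Eif2s3y, on the Y chromosome, was 6.17 and 5.54 in those WT channels and at least 10.39 in all others. The RNA of these 2 arrays thus differed in sex-linked genes from all differentiating RNA, which bears on every comparison between conditions. On the 2 arrays the difference ran between KO and WT RNA, so it cannot be told apart from genotype there. It thus also bears on the KO over WT ratios of proliferating cells, among them those of Syn1 and Syp on the X chromosome. Calls of members that are lost without the 2 arrays are named beside the result. For other release genes this was done for calls in KO against WT cells only. Calls of cell type markers were not checked without the 2 arrays.

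Syt1 was the member with the widest gap between KO and WT cells. Its RefSeq promoter windows, 250 bases before to 50 bases after a transcript start in build GRCm38.p6, are printed because Dnmt3a methylates CpG sites and capitals mark each CG. The window of Syn1, a member that was not called, is shown beside them. Methylation was not measured.
Syt1, chr10:109010926-109011225, minus strand: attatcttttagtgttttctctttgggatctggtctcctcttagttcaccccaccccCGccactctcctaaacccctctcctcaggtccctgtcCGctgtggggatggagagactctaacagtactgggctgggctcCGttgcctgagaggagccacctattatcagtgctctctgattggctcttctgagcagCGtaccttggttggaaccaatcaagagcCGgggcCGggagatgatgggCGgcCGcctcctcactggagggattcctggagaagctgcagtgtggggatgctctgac
Syt1, chr10:109009062-109009361, minus strand: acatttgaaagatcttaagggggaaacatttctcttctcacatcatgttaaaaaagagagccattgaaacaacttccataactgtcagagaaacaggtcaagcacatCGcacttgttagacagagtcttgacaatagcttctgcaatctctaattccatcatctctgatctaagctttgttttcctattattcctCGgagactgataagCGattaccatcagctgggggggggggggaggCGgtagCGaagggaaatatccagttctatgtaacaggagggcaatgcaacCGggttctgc
Syn1, chrX:20920869-20921168, minus strand: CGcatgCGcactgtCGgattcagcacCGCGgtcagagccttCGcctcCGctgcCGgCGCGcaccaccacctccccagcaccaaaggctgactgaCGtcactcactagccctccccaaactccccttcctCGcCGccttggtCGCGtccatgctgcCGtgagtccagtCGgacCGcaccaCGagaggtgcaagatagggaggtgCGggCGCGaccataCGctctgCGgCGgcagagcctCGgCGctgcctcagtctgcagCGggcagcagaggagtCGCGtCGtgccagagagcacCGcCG

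The Syt1 windows held 8 and 6 CG pairs and the Syn1 window 33, where the median over 32851 RefSeq promoter windows was 7. Windows were at hand for 7 of the 10 genes. The other members ranged between 14 and 21 in Syt11, Sv2a, Syp, Stx1a and the first window of Syn2, with 5 in the second window of Syn2. GGGCGG, the GC box, read on both strands, was in 1 of the 2 Syt1 windows and absent from that of Syn1, and 35.7% of all windows held it. CAGCACC, a stretch of the RE1 element that the repressor REST binds, occurred 2 times in the Syn1 window on either strand and in neither Syt1 window, and 7.14% of all windows held it. CG can lie inside GGGCGG, so these counts overlap, and a match describes letters in the window, not a bound site.

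Syt1 signals at the brightest probe (mm7 chromosome 10, 107960316 to 107960375, minus strand) were 7.03 and 7.15 in differentiating KO cells, against 9.90 and 9.28 in differentiating WT cells. In proliferating KO cells they were 6.81, 6.67, 6.12 and 6.33, against 6.94, 7.17, 6.08 and 6.28 in proliferating WT cells. Both differentiating WT channels stood above every other channel, so KO and WT did not overlap after withdrawal, and they overlapped in proliferating cells. On proliferating replicates 3 and 4 neither channel was well above background at this probe.

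The Syt1 ratio was -2.87 and -2.13 on the differentiating arrays, a mean of -2.50 ± 0.52 (n = 2), 5.67-fold lower in KO cells (limma adjusted p = 0.0127, 95% interval of the log2 ratio -2.94 to -2.06). In proliferating cells it was -0.13, -0.51, 0.04 and 0.05, a mean of -0.14 ± 0.26 (n = 4, limma adjusted p = 0.668). With either differentiating array left out, the ratio was -2.23 (without replicate 1) or -2.78 (without replicate 2). In those fits 0 of the 18062 genes passed in differentiating cells (limma, 1297 and 1862 at an unadjusted p under 0.05), so no gene's call could be checked on a single differentiating array.

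Other Syt1 probes gave the same sign in differentiating cells where signal was present. A neighbouring probe (107960365 to 107960424) overlaps the brightest one. It read -2.28 and -1.56 in differentiating cells, against -0.04, -0.36, -0.14 and 0.10 in proliferating cells. In KO cells it exceeded background on 1 of 2 differentiating arrays and on no proliferating one. Another (108103986 to 108104045) read -1.10 and -0.73 in differentiating cells, and none of its KO channels exceeded background. It exceeded background only in the 2 differentiating WT channels and passed the filter through them alone. The remaining 2 probes (107962047 to 107962106 and 107962730 to 107962789) were not well above background in any channel, with ratios between -0.39 and 0.00 in differentiating cells. When each probe was fitted as its own feature, an alternative chosen after seeing the data, all 3 brighter probes were called lower in differentiating KO cells (limma adjusted p between 0.0107 and 0.0166). The dimmest of the 3 passed the filter only through the group where Syt1 is high, and the other 2 share bases. These calls are therefore not independent support.

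**Figure D2:**
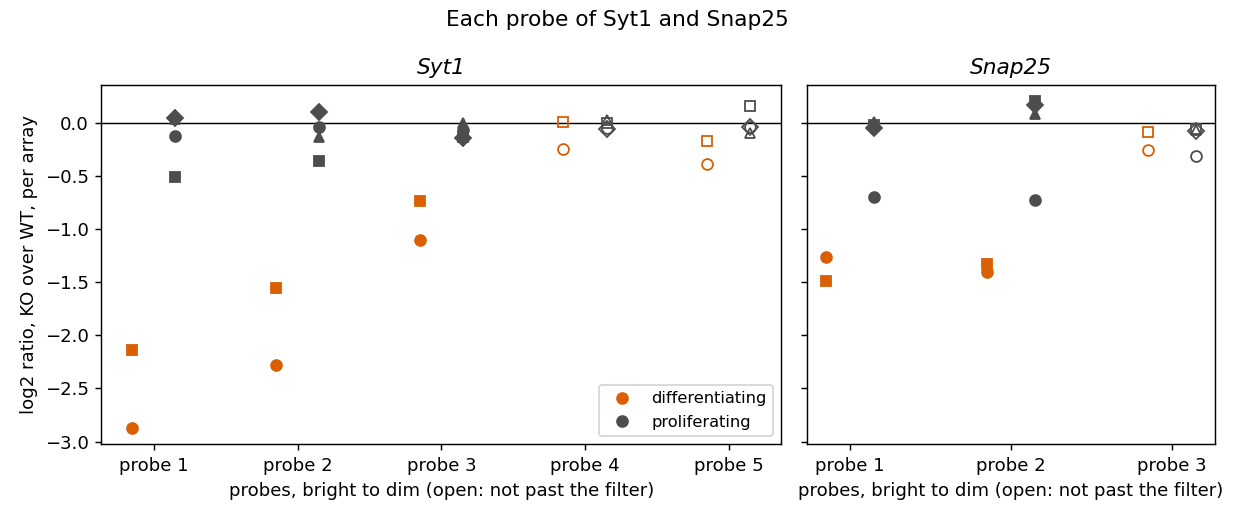
Log2 ratio KO over WT (y axis) of each probe of Syt1 (left) and Snap25 (right), ordered from bright to dim, with differentiating arrays (orange) left of proliferating ones (grey) and open symbols where the probe did not pass the background filter. The Syt1 ratios in differentiating cells run between -2.87 at the brightest probe and values near 0 at the 2 dim ones, and the brighter 2 Snap25 probes lie between -1.49 and -1.26.

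Syt4, a synaptotagmin found on dense core vesicles and in the secretory pathway, did not exceed background in WT cells, and did so in KO cells on 1 of 6 arrays. That array was proliferating replicate 4, where both of its probes were well above background in KO RNA, with ratios of 0.96 and 1.09. On the other 5 arrays the brighter probe lay between -0.11 and 0.10. Syt4 was not tested, and no ratio of it enters the counts.

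Syt11, a synaptotagmin that does not bind calcium in the manner of Syt1, had signals in every channel. At the brightest probe (mm7 chromosome 3, 88859601 to 88859660, minus strand) they were 14.86 and 15.14 in differentiating KO cells, against 14.93 and 15.17 in differentiating WT cells. Its ratio was -0.07 and -0.04 in differentiating cells (-0.05 ± 0.02, limma adjusted p = 0.893, n = 2). In proliferating cells it was -0.35, -0.51, -0.50 and -0.14 (-0.37 ± 0.17, limma adjusted p = 0.132, n = 4). All 4 proliferating values were below 0, yet the gene did not pass. Of the 5 probes named Syt11, 3 carry clone accessions and lie 54968 to 84857 bases from the brightest one, farther than the gene's 30461 bases in GRCm38, so their assignment to Syt11 is uncertain. The brightest of these, at 88914569 to 88914628, gave -0.40 and -0.86 in differentiating cells. The second probe with the RefSeq accession, at 88861774 to 88862601, gave 0.40 and -0.11.

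The SNARE proteins did not move together. Snap25 signals at the brightest probe, for which the file gives no position, were 8.005 and 7.09 in differentiating KO cells, against 9.27 and 8.59 in differentiating WT cells. In proliferating KO cells they were 6.84, 7.39, 7.10 and 7.57, against 7.54, 7.41, 7.09 and 7.62 in proliferating WT cells. The KO and WT signals did not overlap after withdrawal and overlapped in proliferating cells.

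The Snap25 ratio of -1.26 and -1.49 in differentiating cells made a mean of -1.38 ± 0.16 (n = 2), 2.60-fold lower in KO cells (limma adjusted p = 0.0254, 95% interval -1.81 to -0.95). In proliferating cells the ratios were -0.70, -0.02, 0.01 and -0.05 (-0.19 ± 0.34, limma adjusted p = 0.515, n = 4), so that replicate 1 alone made most of the mean. A second probe (mm7 chromosome 2, 136522959 to 136523022, plus strand) gave -1.40 and -1.33 in differentiating cells, against -0.73, 0.20, 0.08 and 0.17 in proliferating cells. The dimmest (136514748 to 136514796) was not well above background in any channel. With either differentiating array left out, where 0 genes passed, the ratio was -1.34 or -1.42. The call was lost without proliferating replicate 4 (adjusted p = 0.0532 in limma), which left the ratio as it was.

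Stx1a, the syntaxin that pairs with Snap25 on the plasma membrane, gave no call. Its signals were 7.50 and 7.44 in differentiating KO cells, against 7.20 and 7.48 in differentiating WT cells. Those groups overlapped. Its ratio was 0.13 ± 0.24 in differentiating cells (limma adjusted p = 0.639, n = 2) and 0.14 ± 0.26 in proliferating cells (limma adjusted p = 0.463, n = 4). The 95% interval in differentiating cells, -0.15 to 0.42, does not reach the Snap25 ratio.

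Vamp2, the SNARE on the vesicle, tracked the dyes at its brightest probe (mm7 chromosome 11, 69173599 to 69173658, plus strand). Its ratios were 0.40 and -0.79 in differentiating cells and -0.66, 0.16, -0.33 and 0.64 in proliferating cells. They were negative wherever KO RNA carried Cy5 and positive wherever it carried Cy3, and the fitted dye term was -0.50. The mean was -0.19 ± 0.84 in differentiating cells (limma adjusted p = 0.616, n = 2) and -0.05 ± 0.57 in proliferating cells (limma adjusted p = 0.897, n = 4). The other 2 Vamp2 probes lay between -0.06 and 0.02 in differentiating cells.

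The synapsins gave no call in either condition. Syn1 had signals of 12.12 and 11.54 in differentiating KO cells, against 12.12 and 11.29 in differentiating WT cells, and those groups overlapped. Its ratio was 0.13 ± 0.18 in differentiating cells (limma adjusted p = 0.684, n = 2) and 0.04 ± 0.15 in proliferating cells (limma adjusted p = 0.868, n = 4). The brightest Syn1 probe is at mm7 chromosome X, 19353787 to 19353846, minus strand. Of the other 3 probes, 1 lies on the opposite strand and is uncertain. The second probe of the RefSeq transcript (19293917 to 19293976) gave -0.47 and -0.18 in differentiating cells, opposite in sign to the brightest one. As its own feature it was not called there (adjusted p = 0.260 in limma).

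Syn2 had ratios of -0.54 and -0.43 in differentiating cells (-0.48 ± 0.08, limma adjusted p = 0.447, n = 2). In proliferating cells they were 0.36, -0.74, -0.79 and -0.42 (-0.40 ± 0.53, limma adjusted p = 0.388, n = 4). Replicate 1 of the proliferating arrays was the only positive value at this probe, a clone-derived one at mm7 chromosome 6, 115301986 to 115302045, plus strand. The probe of the RefSeq transcript (115300584 to 115300643) gave -0.30 and -0.05 in differentiating cells. The remaining one (115307070 to 115307129) gave -0.23 and 0.03.

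Among the vesicle membrane proteins, Syp (synaptophysin) had signals of 7.77 and 7.70 in differentiating KO cells, against 7.82 and 8.18 in differentiating WT cells. The 2 groups did not overlap, but the ratio was -0.05 on one array and -0.47 on the other. Its mean of -0.26 ± 0.30 (n = 2) did not pass (limma adjusted p = 0.264). In proliferating cells the ratio was -0.04 ± 0.27 (limma adjusted p = 0.851, n = 4). Its one probe is at mm7 chromosome X, 6085999 to 6086058, plus strand. Within each condition the Syp ratios were lower where KO RNA carried Cy5 than where it carried Cy3, and the fitted dye term was -0.22.

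Sv2a, a glycoprotein of vesicle membranes that modulates release, had positive ratios on both differentiating arrays, where Syt1 and Snap25 had negative ones. Its signals were 9.49 and 9.16 in differentiating KO cells, against 8.59 and 8.22 in differentiating WT cells, and these groups did not overlap. In proliferating KO cells they were 7.99, 8.59, 8.52 and 8.22, against 8.36, 7.93, 7.86 and 7.34 in proliferating WT cells, and these overlapped.

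The Sv2a ratio was 0.90 and 0.94 in differentiating cells, a mean of 0.92 ± 0.03 (n = 2), and did not pass (limma adjusted p = 0.157). In proliferating cells it was -0.36, 0.66, 0.67 and 0.88 (0.46 ± 0.56, limma adjusted p = 0.317, n = 4). Proliferating replicate 1 had the only negative value, and without it the differentiating ratio of 0.92 passed (adjusted p = 0.0328 in limma). It also passed with the differentiating arrays fitted alone (adjusted p = 0.0064 in limma) and with array weights (0.0293), and in 3 of 16 alternatives in all. The second Sv2a probe gave 0.74 and 0.32 in differentiating cells. The brightest lies at mm7 chromosome 3, 96068526 to 96068585, plus strand, and the second at 96068016 to 96068075.

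**Figure D3:**
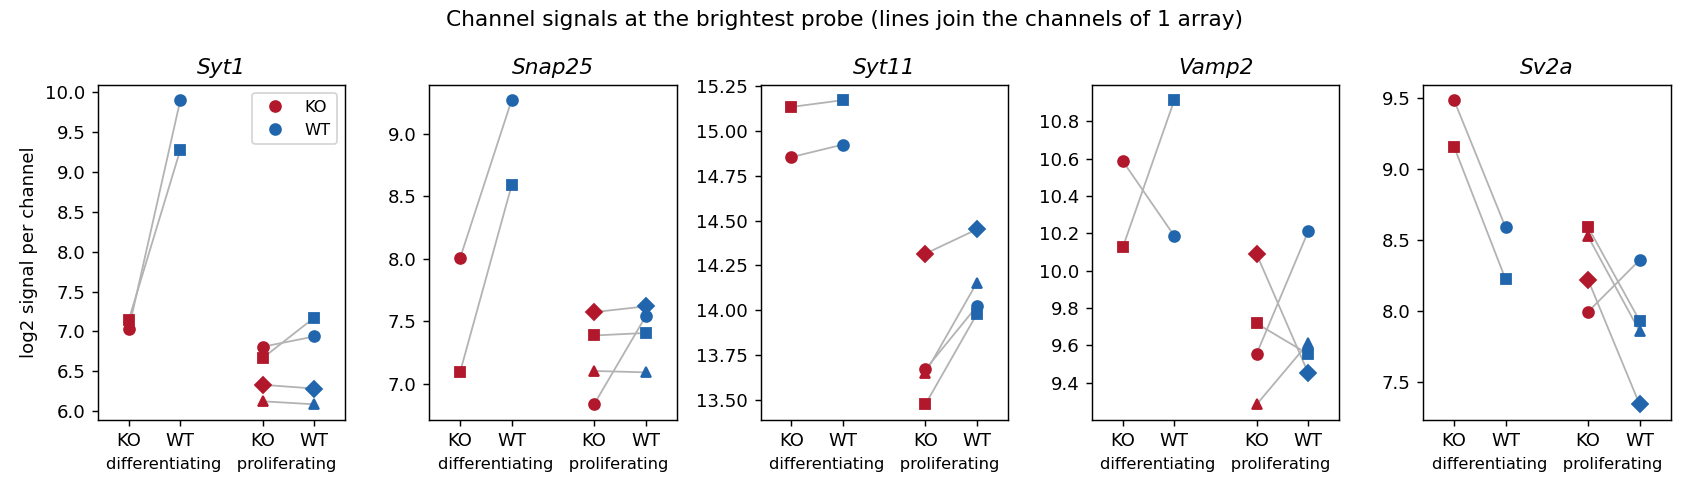
Log2 channel signal (y axis, a separate scale for each gene) of Syt1, Snap25, Syt11, Vamp2 and Sv2a in KO (red) and WT (blue) cells of the differentiating and proliferating arrays, with lines joining the channels of 1 array. Differentiating WT cells stand above the other groups for Syt1 (9.28 and 9.90), KO and WT lie close for Syt11 in differentiating cells, and Sv2a is higher in KO than in WT cells on both differentiating arrays.

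Whether the KO effect differed between the conditions was tested directly, as the effect in differentiating minus that in proliferating cells. No member passed (0 of 9, against 0.0498% of all tested genes, 0.0332% higher and 0.0166% lower), and 2 had an unadjusted p under 0.05, as had 2178 of the 18062 tested genes. The difference was -2.37 ± 0.22 for Syt1 (SE of the fit, limma adjusted p = 0.0557) and -1.19 ± 0.21 for Snap25 (SE, limma adjusted p = 0.150). That of Syt1 passed with no dye term (adjusted p = 0.0359 in limma), with array weights (adjusted p = 0.0217 in limma) and when each probe was its own feature (adjusted p = 0.0483 in limma). With any single array left out, 0 of the 18062 genes passed for this difference, so those fits say nothing about Syt1 alone (limma adjusted p between 0.0894 and 0.665). The differences of the other 7 members lay between -0.22 (Syp) and 0.46 (Sv2a).

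The change from proliferating to differentiating cells was then taken within each genotype, from limma's separate-channel fit over 18050 genes. In KO cells 1 of 9 members was called higher and 0 lower, against 9.14% and 6.09% of all genes (15.2% either way). In WT cells 4 of 9 were called higher and 0 lower, against 9.03% and 5.89% (14.9% either way). The members' median change was 0.61 in KO and 0.68 in WT cells, beside 0.05 over all genes in both. The 2 genotypes share the arrays, and the test of whether their changes differ is the difference of KO effects given above.

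Syt1 changed by 0.61 ± 0.32 in KO cells (SE, limma adjusted p = 0.216) and rose by 2.97 ± 0.32 in WT cells (SE, limma adjusted p = 0.00096), 7.85-fold. Its mean signal was 7.09 ± 0.08 in differentiating KO cells (n = 2), against 6.48 ± 0.31 in proliferating KO cells (n = 4). In WT cells it was 9.59 ± 0.44 in differentiating (n = 2), against 6.62 ± 0.52 in proliferating cells (n = 4). The WT call held under all 13 alternatives of this fit (limma adjusted p between 0.000283 and 0.0426). Its size ran between 1.28, with the mean over probes, and 5.01, with Agilent's processed signals. Of the 4 proliferating WT channels, 2 were not above background at this probe.

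Snap25 changed by 0.33 ± 0.31 in KO cells (SE, limma adjusted p = 0.497) and rose by 1.51 ± 0.31 in WT cells (SE, limma adjusted p = 0.0131), 2.85-fold. The WT call was lost without proliferating replicates 3 and 4 (adjusted p = 0.0896 in limma), without proliferating replicate 2 (0.0782) and without differentiating replicate 1 (0.213). Mean signals were 7.55 ± 0.64 in differentiating and 7.22 ± 0.32 in proliferating KO cells. In WT cells they were 8.93 ± 0.48 in differentiating and 7.41 ± 0.23 in proliferating cells.

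Syt11 rose in both genotypes, by 1.22 ± 0.23 in KO cells (SE, limma adjusted p = 0.00976) and by 0.90 ± 0.23 in WT cells (SE, limma adjusted p = 0.0290). With the mean over all its probes, among them the 3 uncertain ones, the changes were 0.35 in KO and 0.25 in WT cells, and neither passed (adjusted p = 0.142 and 0.303 in limma). The KO call was also lost without proliferating replicate 1 (adjusted p = 0.0700 in limma) or 2 (0.0547), or without either differentiating array (0.0777 and 0.155). The WT call was lost without 5 of the 6 single arrays, all but proliferating replicate 4 (adjusted p between 0.0906 and 0.218 in limma).

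Vamp2 changed by 0.70 ± 0.23 in KO cells (SE, limma adjusted p = 0.0708) and rose by 0.84 ± 0.23 in WT cells (SE, limma adjusted p = 0.0391). That WT call was lost with no dye term (adjusted p = 0.177 in limma), with Agilent's processed signals (0.0526), without proliferating replicates 3 and 4 (0.209) and without 5 of the 6 single arrays, all but proliferating replicate 4. In KO cells Vamp2 passed without proliferating replicate 4 (adjusted p = 0.0449 in limma) and with the mean over its probes (0.0423). Syn1 changed by 0.76 ± 0.26 in KO and 0.68 ± 0.26 in WT cells (SE, limma adjusted p = 0.0724 and 0.103), and Sv2a by 0.99 ± 0.38 and 0.53 ± 0.38 (SE, limma adjusted p = 0.102 and 0.366). Stx1a, Syn2 and Syp lay between -0.12 and -0.09 in KO cells, and between -0.08 and 0.10 in WT cells.

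**Figure D4:**
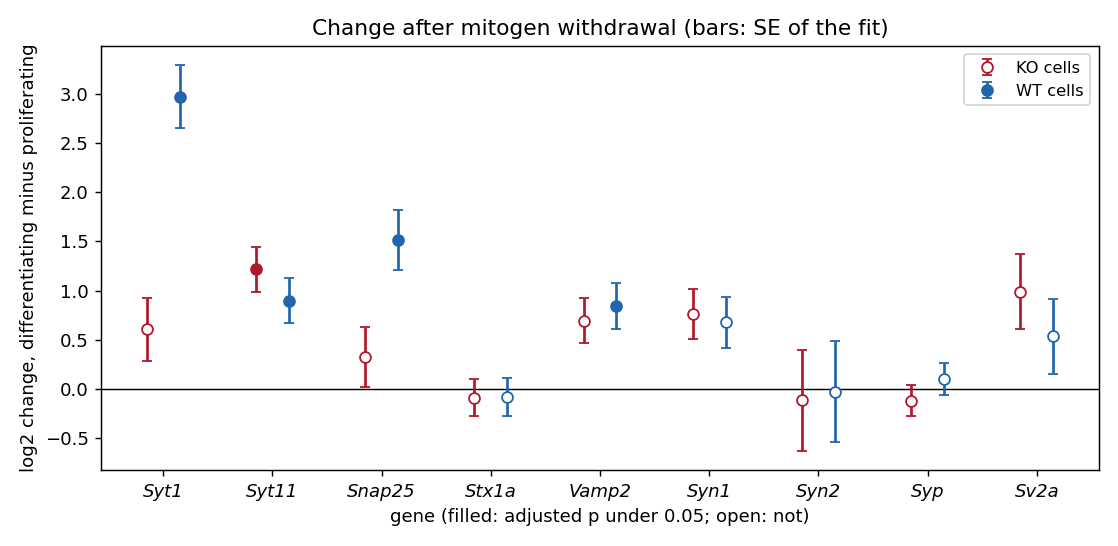
Log2 change from proliferating to differentiating cells (y axis) in KO (red) and WT (blue) cells for the 9 tested genes, with bars of 1 SE and filled symbols where the adjusted p was under 0.05. Syt1 and Snap25 have the widest gap between genotypes, at 0.61 against 2.97 and at 0.33 against 1.51, and the bars of KO and WT cells overlap for the other 7 genes.

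Over the 12 channels, which share 6 arrays, the signals of Syt1 and Snap25 correlated with Pearson's r = 0.870 as a description. The signals most like those of Syt1 were of Klc1, a kinesin light chain (r = 0.975), Tenm2, a teneurin (r = 0.969), Kit, a receptor tyrosine kinase (r = 0.966), BC022177 and 5330430C04Rik. Those most like Snap25 were of Cntn2, an axonal adhesion protein (r = 0.949), Zfp566, the protocadherin Pcdh15 and 2 clones. Cntn2 and the 2 clones exceeded background only in the 2 differentiating WT channels. They passed the filter through those alone, so their r sets 2 channels against background.

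Some markers of cell types also differed between differentiating KO and WT cells, where 0.902% of all tested genes were called lower and 2.18% higher. The median log2 ratio there was -0.92 over the tested neuronal, 2.20 over the oligodendroglial and 1.63 over the astroglial markers. In proliferating cells these medians were 0.01, 0.93 and 0.33. Of 11 neuronal markers, 10 were tested and 3 fell in differentiating KO cells, namely Tubb3 (-1.56 ± 0.17, limma adjusted p = 0.0147, n = 2), Map2 (-0.95 ± 0.13, limma adjusted p = 0.0159, n = 2) and Rbfox3 (-0.89 ± 0.21, limma adjusted p = 0.0368, n = 2). The summed signal of all 11 neuronal markers, in linear array units, was 11715 and 13522 in differentiating KO cells, against 25268 and 27459 in differentiating WT cells. In proliferating cells the sums ran between 9464 and 11280 in KO and between 9300 and 11994 in WT cells, and 0 markers were called. Gad2 was not well above background in any channel.

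Of 12 oligodendroglial markers, 5 rose in differentiating KO cells, where 2.18% of all genes were called higher. The summed signal of the 12 was 134268 and 143465 in KO, against 41221 and 51984 in WT cells. In proliferating cells the sums ran between 57459 and 102378 in KO and between 44501 and 74796 in WT cells. The 5 were Sox10, Mag, Mobp, Cnp and Cldn11, while Olig1 (-0.34), Olig2 (-0.70) and Pdgfra (-0.38) had negative ratios that did not pass. Sox10 was also called in proliferating KO cells (2.46, limma adjusted p = 0.0124, n = 4), where Syt1 and Snap25 were not. Of 6 astroglial markers 2 rose, Aqp4 and Gjb6. The summed signal of the 6 was 48516 and 81602 in differentiating KO, against 20167 and 23588 in differentiating WT cells. In proliferating cells the astroglial sums ran between 32446 and 55031 in KO and between 10688 and 31664 in WT cells. None of 6 microglial markers passed the filter, and 5 were not well above background in any channel, and Cdh5, Cldn5 and Rgs5 of the endothelial and mural list were not either. The part of cell composition in the Syt1 and Snap25 results was not tested, and in bulk RNA fewer neurons and less of these RNAs per neuron cannot be told apart.

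The rest of the release pathway was read from 8 lists with 166 genes on the array, of which 141 were tested. In differentiating KO cells 3 of the 141 were called higher and 2 lower (2.18% and 0.902% over all genes), with a median of 0.02. In proliferating KO cells 3 were called higher and 1 lower (0.615% and 0.338% over all genes), with a median of -0.02. The difference of KO effects was called for 0 of the 141. Called either way were 5 of the 141 in differentiating cells, near the 3.08% of all genes. In proliferating cells they were 4 of the 141, against 0.952% of all genes. The lists were not tested as sets, so the calls below describe single genes.

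Among the SNAREs outside the members, 1 of 28 tested genes rose in both conditions. Vamp8, a SNARE of endosomes and of regulated secretion outside neurons, had ratios of 1.78 and 2.11 in differentiating cells (1.94 ± 0.24, limma adjusted p = 0.00771, n = 2). In proliferating cells they were 1.05, 1.00, 1.20 and 1.03 (1.07 ± 0.09, limma adjusted p = 0.0124, n = 4), so that all 6 arrays were positive. The WT channel of Vamp8 exceeded background on 2 of the 4 proliferating arrays. The proliferating call was lost without proliferating replicate 2, 3 or 4 (adjusted p between 0.0532 and 0.0613 in limma).

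None of 9 other synaptotagmins and none of 20 other vesicle membrane proteins was called in KO against WT cells. Of 17 genes of the active zone and Rab3 cycle, Rab3b, a vesicle GTPase, rose by 1.28 ± 0.15 in differentiating cells (limma adjusted p = 0.0412, n = 2) and had 0.93 ± 0.39 in proliferating cells. Of 25 SNARE regulators and priming factors, Cadps, which primes dense core vesicles, fell in proliferating cells (-0.71 ± 0.19, limma adjusted p = 0.0439, n = 4) and had -0.39 ± 0.28 in differentiating cells. The Rab3b call was lost without proliferating replicate 1 (adjusted p = 0.0616 in limma) or 4 (0.0704). That of Cadps was lost without proliferating replicates 3 and 4 (-0.71, adjusted p = 0.0847 in limma) and without each single array, and passed in 4 of 16 alternatives.

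Slc32a1, the transporter that loads GABA into vesicles, was the one called gene of 5 tested vesicular transporters. Its ratio was -1.15 and -2.10 in differentiating cells (-1.62 ± 0.67, limma adjusted p = 0.0284, n = 2) and lay between -0.24 and 0.06 in proliferating cells. Its KO signal exceeded background on 1 of 2 differentiating arrays. The call was lost without proliferating replicate 2 (adjusted p = 0.0542 in limma).

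Of 10 dense core vesicle genes, Pcsk2, a convertase of prohormones, fell in differentiating cells (-0.88 ± 0.05, limma adjusted p = 0.0497, n = 2). Scg5, the chaperone of that convertase, rose in proliferating cells, with ratios of 1.12, 0.88, 0.89 and 1.49 (limma adjusted p = 0.0287, n = 4). Of 27 endocytosis genes, Bin1, a membrane-bending protein, rose by 1.04 on both differentiating arrays (limma adjusted p = 0.0206, n = 2), and Sh3gl3, an endophilin, in proliferating cells (1.74 ± 0.76, limma adjusted p = 0.0321, n = 4). Without proliferating replicates 3 and 4, Scg5 had 1.001 (adjusted p = 0.0826 in limma) and Sh3gl3 had 1.498 (adjusted p = 0.0583 in limma), and neither passed. Over 16 alternatives Scg5 passed in 8, Sh3gl3 in 7, Pcsk2 in 5 and Bin1 in 14. Without 1 proliferating array, Scg5 was lost without replicate 1, 3 or 4, Sh3gl3 without any one, and Pcsk2 without replicate 1, 2 or 3.

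**Figure D5:**
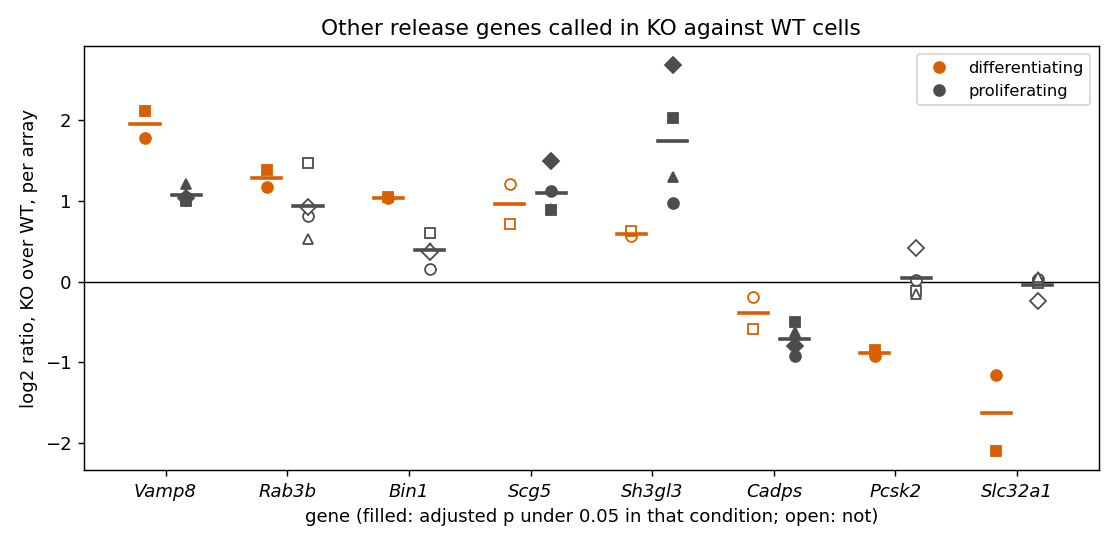
Log2 ratio KO over WT (y axis) of the 8 other release genes called in either condition, with 1 symbol per array, differentiating arrays (orange) left of proliferating ones (grey), bars at the means and filled symbols where the gene was called. Vamp8 is positive on all 6 arrays, while Slc32a1 and Pcsk2 are at -0.85 or lower on both differentiating arrays and between -0.24 and 0.42 on the proliferating ones.

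After mitogen withdrawal the wider lists had 26 genes called higher and 4 lower in KO cells, and 20 higher and 5 lower in WT cells, of 141 tested each. Over all genes the shares were 9.14% higher and 6.09% lower in KO cells, and 9.03% and 5.89% in WT cells. Their median change was 0.24 in KO and 0.25 in WT cells, beside 0.05 over all genes. The dense core vesicle genes had the highest list median, at 0.99 in KO and 1.37 in WT cells, with 3 of 10 called higher in each. The active zone and Rab3 cycle list had medians of 0.22 in KO and 0.56 in WT cells, and 5 of 17 were called higher in each.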

How the data were processed

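Gene expression was read on 6 Agilent arrays with 2 colours, with 500 ng of total RNA per label, per the labels' protocols. Deposited per array were the spots' mean intensity in each dye and the median background around them, written by Agilent Feature Extraction 9.5.1.1 for array design 014868 with mm7 probe positions, per the file headers. Their deposited log10 ratio runs Cy5 over Cy3. A deposited table of processed values repeats these log10 ratios with the sign set to KO over WT on every array, and its column medians are 0; whether it was centred further is unknown.

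Signals were corrected with limma 3.58.1 in R 4.3.3 (normexp, offset 50; statmod 1.5.0, the data.table package, version 1.17.8) and normalized by loess within arrays, leaving out 1639 control spots on each array and 859 gene spots marked as outliers. Of 41174 probes, 22951 were named by accession and 18223 by the array design. Each gene took its brightest probe. Log2 ratios of all 6 arrays were fitted with a coefficient per condition and a dye term (3 residual and 2.56 prior degrees of freedom). Channels were fitted after Aquantile normalization (intraspot correlation 0.764). Adjusted p-values are 2-sided. The fits were tested on simulated data. The members, lists and tests were chosen with earlier results of these data known. Named genes are all members, up to 4 called genes per list, and the 5 most like Syt1 and Snap25. Each member's brightest probe is given, and values of other probes for part of the members. Same-numbered arrays carry opposite dye orientations, and the sign of their correlation (r = -0.37 and -0.29) follows the dye, so it does not test a pairing. The labels give no shared source for a number, and the arrays were treated as unpaired. The number of arrays limits the precision.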

Additional observations from a re-analysis of the deposited data

Results flagged for a closer look

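Of 30 sets of 4 proliferating values (the ratio, KO signal and WT signal of each gene at its brightest probe), 2 had an array that stood far from the other 3; about 1 in 20 such sets would by chance. The Syt4 ratio was 0.96 on proliferating replicate 4, against 0.06 to 0.10 on the other proliferating arrays, with KO signal well above background on that array only. The Snap25 ratio was -0.70 on proliferating replicate 1, against -0.05 to 0.01 on the others, and -0.73 at its second probe. Over tested genes, the ratios of proliferating replicate 1 correlated with those of replicates 2, 3 and 4 at Pearson's r = 0.12, 0.27 and 0.05. Proliferating replicates 2, 3 and 4 correlated with each other at r = 0.42 to 0.49. Replicate 1 thus stood apart over the whole array, not in these members alone.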

How the results depend on the processing

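The KO ratio of Syt1 in differentiating cells kept its sign under all 16 alternatives (-3.88 to -1.15) and was called in 14; that of Snap25 kept its sign under all 16 (-2.12 to -0.97) and was called in 13. Proliferating members had 0 calls under all 16. These are not all distinct. In proliferating cells the condition fitted alone and the fits without either differentiating array are the same fit. The deposited value table nearly repeats Agilent's processed signals in both conditions. Leaving out 1 array gave 0 to 3 called members in differentiating cells, 0 for the difference of KO effects, 0 to 2 for withdrawal in KO and 1 to 4 in WT cells, 0 to 7 genes of the wider lists in differentiating and 0 to 2 in proliferating cells, and Dnmt3a ratios of -1.40 to -1.37 in differentiating cells and -1.05 to -0.85 in proliferating cells, called there only without proliferating replicate 1 (adjusted p = 0.0389 in limma; 0.0532 to 0.116 in the other 5). Without either differentiating array 0 of 18062 genes passed in either condition, so those fits test no call. The difference of KO effects was called for 1 member with no dye term, 2 with array weights and 1 with each probe as its own feature (chosen after seeing the data). Without proliferating replicates 3 and 4, 2 members were called for withdrawal in WT cells, and 11 list genes in differentiating and 1 (Vamp8) in proliferating cells. The lists had 19 calls in differentiating and 0 in proliferating cells with each condition fitted alone, where Dnmt3a in proliferating cells was -0.96 (adjusted p = 0.116 in limma). They had 25 calls in differentiating cells with array weights, 3 with the mean over probes, and 1 in proliferating cells with no filter. With the replicate number as a block, 1 member was called for the difference (Syt1, -2.36, adjusted p = 0.0498 in limma); in fits of 1 genotype's channels with that block, 0 were called for withdrawal in KO and 1 in WT cells. The labels do not tie the numbers to a shared source, so these are given here only. Over all genes, calls in differentiating cells were 557, against 2112 with array weights, 1586 fitted alone and 285 with median centring; in proliferating cells they were 172, against 278 with Agilent's processed signals, 0 fitted alone and 101 with no filter. For the difference they were 9, against 0 to 153. The causes of these shifts were not tested. Slide or scan as a block was not run, since each held 1 condition. Signal near background limits Syt1 in proliferating cells, and 2 arrays limit the differentiating values.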
